A study of Rattus norvegicus with 24 samples.

Results

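Translation initiation and elongation factor genes were described in purified germ cells of the rat testis. The set holds every gene whose symbol begins with Eif or Eef and a digit, or with Pabp, and that had a probe set naming that gene alone. It came to 62 of the 14217 genes so measured, with 98 probe sets between them, and each gene was represented by its probe set with the highest mean level. RNA of pachytene spermatocytes, cells midway through meiotic prophase, and of round spermatids, the haploid cells formed after the meiotic divisions, was measured on 24 Affymetrix rat arrays. All animals were Brown Norway rats, 4 months old in the young groups and 18 months old in the aged groups, and no group carried a transgene or a treatment in the labels. The 4 groups were young pachytene spermatocytes, aged pachytene spermatocytes, young round spermatids and aged round spermatids, with 6 arrays each. By the numbers in the labels, the same 12 rats gave both fractions. A digest with collagenase and trypsin released the testis cells, which a STAPUT density gradient then separated. The stated purity was above 83%, so each fraction may hold other cells of the testis. In bulk RNA of this kind, fewer cells of a type and less RNA per cell cannot be told apart.

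Protein synthesis begins when eIF2, carrying GTP and the initiator tRNA, joins eIF3 and other factors on the small ribosomal subunit. The eIF4 factors bind the mRNA cap, unwind the leader and, through poly(A)-binding protein, bring the mRNA to that subunit, and eIF5B then joins the large subunit. eIF2B recharges eIF2 with GTP, kinases that phosphorylate eIF2 block this step, and 4E-BP proteins hold the cap-binding protein eIF4E. The eEF1 and eEF2 factors then drive elongation. Male germ cells are known for storing many mRNAs before translating them, and for germ-cell paralogs of general translation factors.

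Start site sequences are shown for a gene pair and for a sequence feature, beside the levels given further on. The first is the pair of eIF2 gamma subunit genes, Eif2s3 on the X chromosome and Eif2s3y on the Y chromosome. Of 7 genes listed as germ-cell paralogs, Eif2s3y was the only 1 measured. No tissue outside the testis was measured here, so Eif2s3y has that name by the list alone. Eif4e1b, Pabpc1l, Pabpc2, Pabpc3, Pabpc6 and Pabpn1l had no probe set naming them alone, so they are not described. The second is a pyrimidine run at the start of transcription, the mark of TOP mRNAs, whose translation is tied to growth signals and which include several translation factors. All windows are 30 bases long, are written 5′ to 3′ and come from the RefSeq promoter set on build GRCr8. Eif2s3 lies on the minus strand at chrX:62933663-62933692 and Eif2s3y on the plus strand at chrY:944642-944671. The Eif2s3y window straddles the start that this set annotates, and the Eif2s3 window lies just after the start annotated for that gene. For some genes shown here, as Eif2s3, Eif4a2 and Eef1a1, the RefSeq bounds of the gene reach further upstream. A window therefore need not show every start of its gene. The capitals mark the 13 bases that both windows share.
Eif2s3: tttctctcTGAGCAAGATGGCtgggggtga
Eif2s3y: ttctttcgTGAGCAAGATGGCgggcggaga

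The pyrimidine run was searched for on the sense strand as a C followed by at least 4 more bases that are each C or T, beginning within 5 bases of the annotated start, which all windows of this set straddle. It is in capitals in the windows of Eef1b2 (chr9:72074081-72074110, plus strand), Eef1a1 (chr8:88225050-88225079, minus strand), Eif3f (chr1:172369052-172369081, plus strand), Eif3m (chr3:111897174-111897203, minus strand) and Eif4g1 (chr11:93746348-93746377, minus strand). Eif4a2 (chr11:91275304-91275333, minus strand) and Eif2b1 (chr12:37686565-37686594, plus strand) are shown beside them as windows with no run, since they differed most between the cell types in the lower direction.
Eef1b2: ggccggtcccggCCCTTTTTCTCCCTCagc
Eef1a1: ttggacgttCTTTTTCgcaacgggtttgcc
Eif3f: cccttccgttctagCCTCTCTCTTTCTCgg
Eif3m: caccgtgtggtaccgCTCCTTTTCCggtcg
Eif4g1: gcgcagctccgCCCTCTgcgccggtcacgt
Eif4a2: ttcagtcgggcgctgagtgggttttcggat
Eif2b1: ctgtcaggcggtgctttgctgctggcgggg

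Levels are log2 signals of a probe set, and a difference of 1 on this scale is a doubling. Signals are not compared between genes, because probe sets differ in brightness. Array medians as deposited were 7.02 to 7.38 in young and 6.62 to 6.92 in aged pachytene spermatocytes, and 7.56 to 7.71 and 7.67 to 7.86 in round spermatids. The absent control stood at 4.28 in pachytene arrays and at 6.83 in round spermatid arrays, so cell type and array background cannot be told apart for dim genes, even after the adjustment made for it. Markers of the labelled cells moved with the labels: 11 of 12 measured pachytene markers were lower and 8 of 9 round spermatid markers higher in round spermatids. Sertoli cell markers, 12 of them measured, were present in both fractions, with a summed log2 level of 14.41 to 16.24 in pachytene arrays and 11.72 to 13.26 in round spermatid arrays. Of these 12 markers 10 were lower and 2 higher in round spermatids, and their part in the cell type differences below was not tested. Other markers were higher in round spermatids: all 11 measured late spermatid markers, with sums of 16.91 to 18.09 in pachytene and 18.32 to 18.43 in round spermatid arrays, 9 of 10 macrophage markers (11.36 to 13.41 and 13.55 to 14.04) and 6 of 7 peritubular markers (10.69 to 11.50 and 11.80 to 12.24). Of 8 measured spermatogonia markers 5 were higher and 1 lower in round spermatids. Their sums were 10.36 to 11.54 in pachytene and 11.69 to 12.61 in round spermatid arrays. Of 9 Leydig cell markers 6 were lower and 1 higher in round spermatids. The part of these markers was not tested either. Among the factors, the eIF2 kinases Eif2ak2, Eif2ak3 and Eif2ak4 were dim in pachytene spermatocytes, and Eif2ak2 and Eif2ak3 in round spermatids. Young rats 1, 10 and 11 stood apart from the other rats in the pachytene fraction, along a first component that held 73.9% of the variance. Most age changes described for called members are therefore also given without them. Age changes of other translation genes, markers and chromosomes are given with all rats only.

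The first comparison asks how the factors differ between meiotic and haploid cells. Round spermatids had more RNA than pachytene spermatocytes for 23 members and less for 32, at an adjusted p of 0.05 (limma, Benjamini-Hochberg over all 31042 probe sets). Over all probe sets, 46.9% were called higher and 38.2% lower, so the share of members called is close to the 85.1% of probe sets called in either direction. With 1 probe set per gene, as for the members, 49.2% of the 14217 genes were called higher and 39.1% lower. Counts by role below are to be read beside these shares, and those with age beside the shares given there. The median difference was −0.10 over members and 0.03 over all probe sets. A difference of at least 2-fold was called for 5 members higher and 5 lower, against 14.6% of all probe sets. The arrays of the cell types did not overlap for 13 higher and 17 lower members, against 25.6% and 20.0% of probe sets. Of the 55 calls, 35 held under every other setting run, 12 of them higher and 23 lower.

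**Figure D1:**
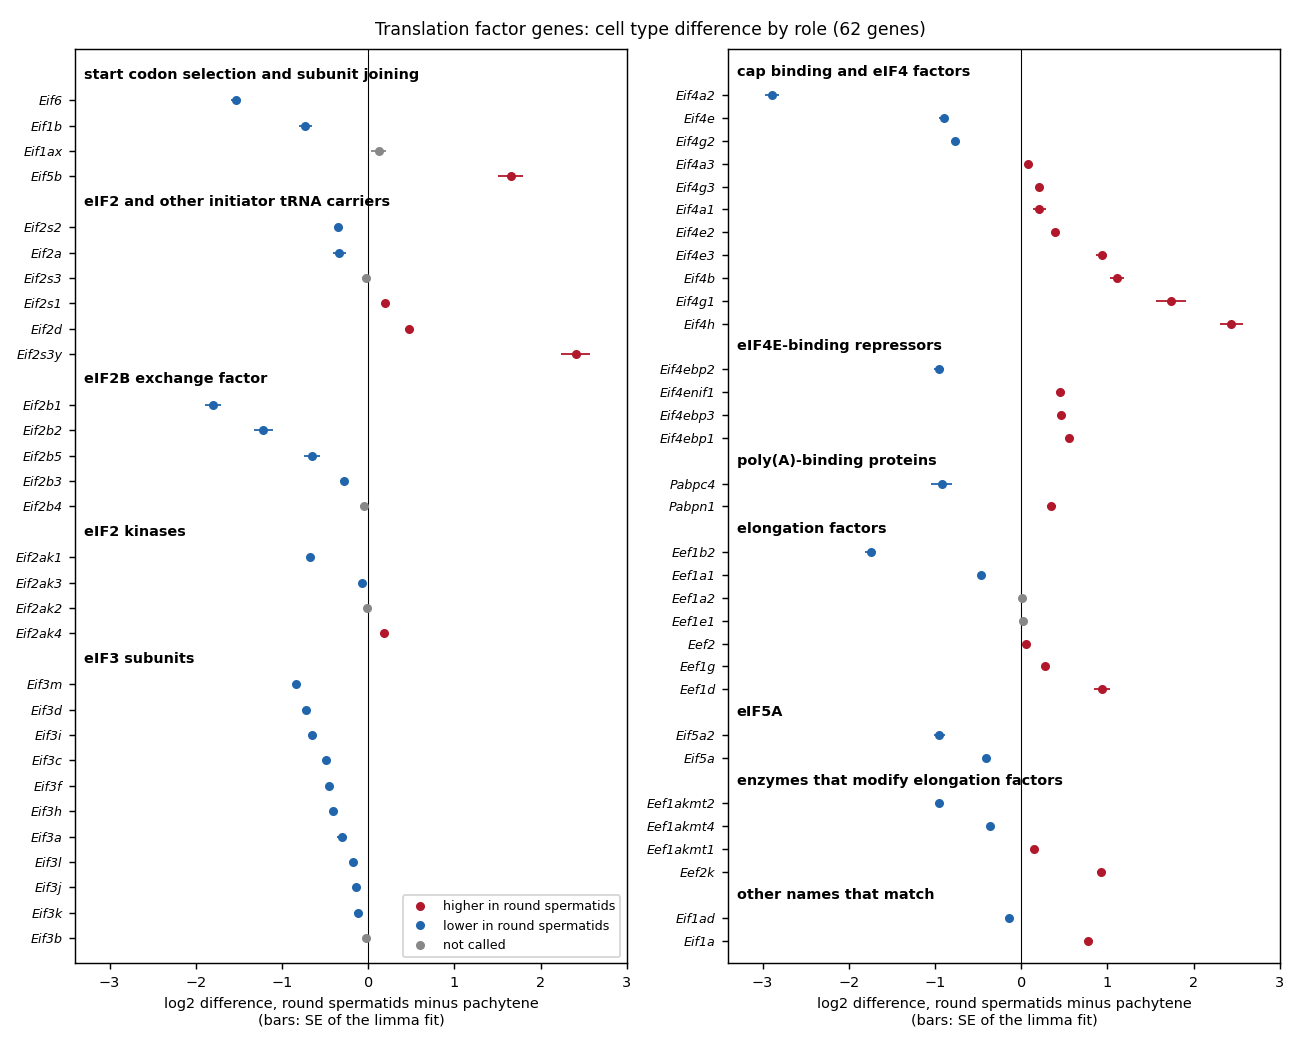
Difference between round spermatids and pachytene spermatocytes (log2, round minus pachytene) of the 62 members by role; points are fitted differences, bars their SE, red called higher, blue called lower, grey not called. The eIF3 and eIF2B members sit at or left of 0, whereas 8 of the 11 eIF4 factors sit to the right by the probe sets used.

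By the probe sets used, 8 of the 11 cap-binding and eIF4 members were higher in round spermatids and 3 lower. That count includes Eif4b, Eif4e, Eif4e3 and Eif4h, whose probe sets conflict. Eif4a2, an RNA helicase of the eIF4A family, had lowest, median and highest levels of 12.55, 13.01 and 13.13 in young and 12.87, 12.92 and 13.02 in aged pachytene spermatocytes. In round spermatids its levels were 9.92, 10.16 and 10.70 in young and 9.67, 9.88 and 9.97 in aged rats. Every pachytene array lay above every round spermatid array. The difference was −2.89 ± 0.08 (SE, n = 12 arrays per cell type), 7.42-fold lower in round spermatids (adjusted p = 2.14e-19). The related helicase Eif4a1 showed 0.21 ± 0.08 (adjusted p = 0.0141), and its sign turned to −0.02 when arrays were centred on hybridization controls. Eif4a3, the eIF4A relative of the exon junction complex, differed by 0.08 ± 0.04 (adjusted p = 0.046), with −0.06 to −0.14 under the other scalings.

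Eif4g1, the scaffold that links eIF4E, eIF4A and poly(A)-binding protein, was higher in round spermatids. Its levels were 10.07, 10.76 and 12.14 in young and 9.59, 9.79 and 10.17 in aged pachytene spermatocytes, against 11.97, 12.33 and 12.68 in young and 11.66, 11.90 and 12.05 in aged round spermatids. Young pachytene arrays were the most spread, and the highest of them reached the range of the round spermatids. The difference was 1.74 ± 0.17, or 3.34-fold (adjusted p = 2.04e-09). All 4 probe sets of Eif4g1 were called higher, by 0.51 to 1.94. The other scaffolds differed in sign: Eif4g3 was higher by 0.21 ± 0.02 (adjusted p = 3.37e-09), and Eif4g2, a scaffold that lacks the eIF4E-binding part, was lower, at −0.76 ± 0.03 (adjusted p = 5.75e-18). Eif4e2, a cap-binding relative that acts as a repressor, and Eif4e3 were higher by 0.40 ± 0.04 and 0.93 ± 0.06 (adjusted p = 1.66e-08 and 1.03e-12), the second with conflicting probe sets.

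**Figure D2:**
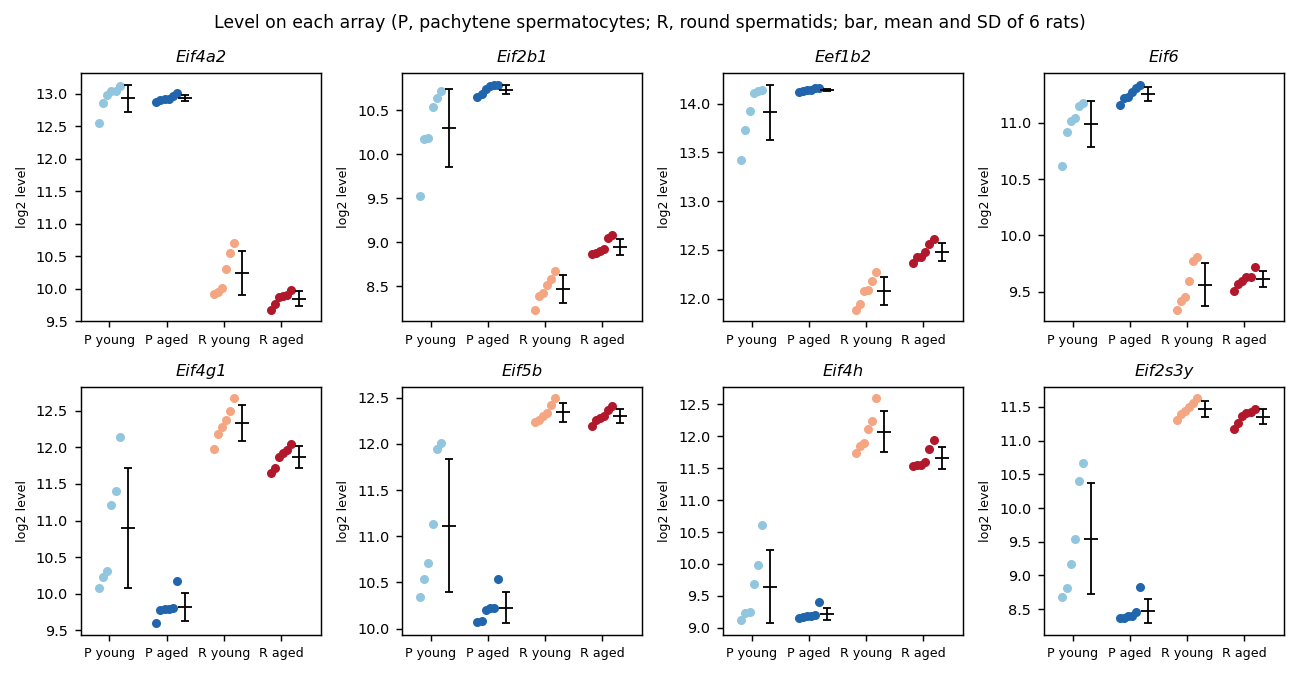
Log2 level on each array, sorted within the group, for Eif4a2, Eif2b1, Eef1b2, Eif6, Eif4g1, Eif5b, Eif4h and Eif2s3y in the 4 groups; bars give mean and SD of 6 arrays. By the probe sets used, the first 4 genes are lower and the last 4 higher in round spermatids, though the other probe set of Eif4h was lower. Young pachytene arrays of Eif4g1, Eif5b and Eif2s3y are the widest spread.

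Some eIF4 genes gave opposite answers from different probe sets. Eif4h, which helps eIF4A unwind RNA, had levels of 9.12, 9.46 and 10.61 in young and 9.15, 9.18 and 9.41 in aged pachytene spermatocytes, and 11.74, 12.002 and 12.60 and 11.53, 11.58 and 11.95 in round spermatids. The groups of the 2 cell types did not overlap. By this probe set it was higher by 2.44 ± 0.13, or 5.42-fold (adjusted p = 3.68e-14), but its other probe set gave −1.66 ± 0.07 (adjusted p = 2.25e-16). Eif4b, a partner of the same helicase, stood at 10.24, 10.33 and 10.87 in young and 10.19, 10.25 and 10.35 in aged pachytene spermatocytes, and at 11.13, 11.58 and 11.86 and 11.33, 11.40 and 11.61 in round spermatids. Here too the cell types were apart. Its probe sets gave 1.11 ± 0.08 (adjusted p = 6.00e-12) and −1.24 ± 0.04 (adjusted p = 6.74e-18). Eif4e, the cap-binding protein itself, gave −0.90 ± 0.05 by the probe set used (adjusted p = 8.94e-14), −0.23 ± 0.02 by another (adjusted p = 2.10e-10) and 2.82 ± 0.14 by the third (adjusted p = 6.30e-15). For these genes a single direction cannot be given. Averaged over their probe sets, Eif4b was at −0.06 and Eif4e at 0.57.

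Conflicts of this kind were found in 11 of the 26 members with several probe sets: Eef2k, Eif1a, Eif3a, Eif3h, Eif3j, Eif3k, Eif4b, Eif4e, Eif4e3, Eif4h and Pabpn1. Over all 4525 genes with several probe sets, 32.2% were called in both directions between the cell types. Eif1a, a name that matched the pattern but was given no role, stood at 9.73 to 10.36 over all pachytene arrays and at 10.58 to 11.10 over all round spermatid arrays. It was higher by 0.78 ± 0.05 with the probe set used (adjusted p = 7.21e-13), and lower by −1.31 to −2.31 with its other 3. Averaging the probe sets turned the sign of Eif1a (−1.21), Eif3a (0.50), Eif3j (0.65) and Pabpn1 (−0.32). The files used here do not say which part of the transcript each probe set reads. Members whose probe sets did not conflict numbered 51.

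**Figure D3:**
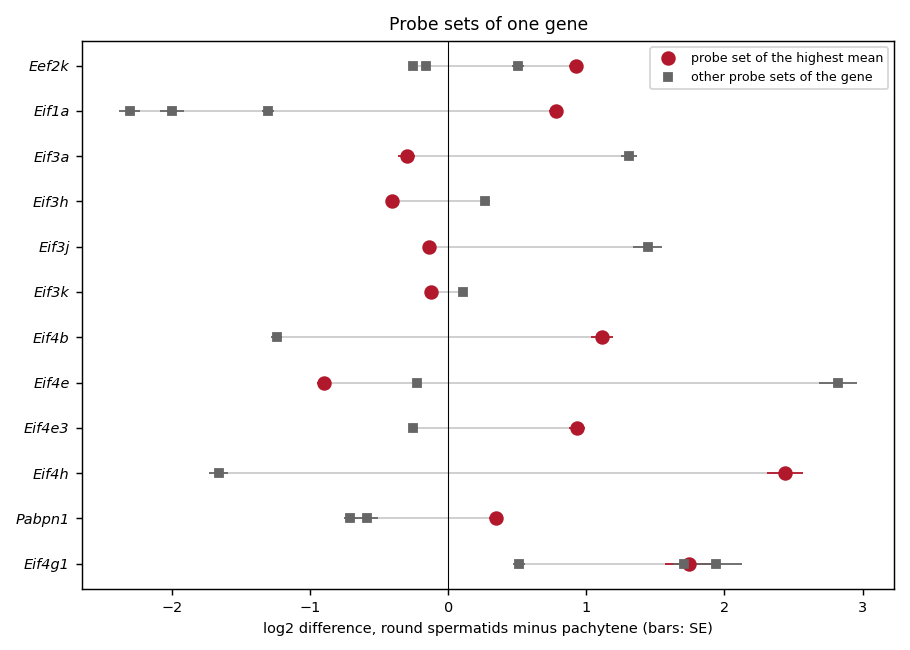
Cell type difference (log2, round minus pachytene) of each probe set of the 11 members called in both directions, and of Eif4g1 for contrast; large red circles are the probe sets used, small grey squares the other probe sets, and bars SE. Eif4e, Eif4h, Eif4b and Eif1a have points on both sides of 0, whereas the 4 points of Eif4g1 lie to the right.

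All 4 repressors that bind or shuttle eIF4E were called. Eif4ebp2 was lower in round spermatids, with 9.48, 9.97 and 10.08 in young and 9.79, 9.85 and 9.98 in aged pachytene spermatocytes against 8.81, 9.02 and 9.13 and 8.77, 8.82 and 8.87 in round spermatids. The cell types did not overlap, and the difference was −0.95 ± 0.06 (adjusted p = 2.80e-13). Eif4ebp1 was higher by 0.56 ± 0.04 (adjusted p = 5.18e-13). Eif4ebp3 at 0.46 ± 0.03 (adjusted p = 1.08e-11) and the eIF4E transporter Eif4enif1 at 0.45 were also called higher, but both changed sign under 3 other scalings (−0.12 to −0.20 and −0.08 to −0.16).

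The eIF2B complex was lower in round spermatids for 4 of its 5 subunits, with a median difference of −0.65. Eif2b1, the alpha subunit, which takes part in sensing phosphorylated eIF2, had levels of 9.52, 10.36 and 10.71 in young and 10.64, 10.75 and 10.78 in aged pachytene spermatocytes. In round spermatids the levels were 8.23, 8.47 and 8.67 in young and 8.87, 8.91 and 9.08 in aged rats. No round spermatid array reached the lowest pachytene array. The difference was −1.80 ± 0.09, or 3.49-fold (adjusted p = 1.33e-14). Eif2b2, the beta subunit, stood at 10.96, 11.83 and 12.29 in young and 12.34, 12.51 and 12.58 in aged pachytene spermatocytes, and at 10.48, 10.57 and 10.92 in young round spermatids, with a median of 11.18 and a highest value of 11.38 in aged ones. The overlap came from young pachytene rats 1 and 10, which lay among the aged round spermatids. The difference was −1.22 ± 0.11 (adjusted p = 9.01e-10). It was −0.65 ± 0.09 for Eif2b5, the epsilon subunit that holds the catalytic exchange activity (adjusted p = 5.50e-07). Eif2b3 was lower at −0.28, and Eif2b4 at −0.05 was not called.

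The carriers of the initiator tRNA were mixed, with 3 of 6 higher and 2 lower. The Y-linked gamma subunit Eif2s3y stood at 8.68, 9.36 and 10.66 in young and 8.37, 8.39 and 8.83 in aged pachytene spermatocytes. It was at 11.31, 11.47 and 11.64 in young and 11.18, 11.39 and 11.47 in aged round spermatids. All round spermatid arrays lay above all pachytene arrays. The difference was 2.41 ± 0.17, or 5.30-fold (adjusted p = 3.24e-12). Its X-linked partner Eif2s3 had levels of 7.82, 7.92 and 8.31 in young and 7.60, 7.68 and 7.81 in aged pachytene spermatocytes, and 7.76, 7.91 and 8.03 and 7.63, 7.74 and 7.78 in round spermatids. These groups overlapped, and the difference of −0.03 ± 0.05 was not called (adjusted p = 0.622). Whether the cell type difference of the Y-linked gene differs from that of the X-linked gene was not tested.

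The other eIF2 subunits differed less. Eif2s1, the alpha subunit that the kinases phosphorylate, was higher by 0.20, and Eif2s2, the beta subunit, was lower at −0.36. The alternative carrier Eif2d was called higher at 0.47 ± 0.05 (adjusted p = 1.37e-09), with −0.05 to −0.13 under the other scalings. Among the 4 kinases, Eif2ak1, the heme-regulated kinase, stood at 10.55, 10.89 and 10.91 in young and 10.79, 10.82 and 10.89 in aged pachytene spermatocytes, and at 10.06, 10.19 and 10.31 and 10.07, 10.11 and 10.16 in round spermatids. No arrays of the cell types overlapped, and it was lower at −0.67 ± 0.04 (adjusted p = 2.63e-14). Eif2ak4, the amino acid-sensing kinase, was called higher at 0.19, while the calls for the dim Eif2ak3 (−0.07) turned sign in other scalings and Eif2ak2 was not called.

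The eIF3 subunits were lower in round spermatids for 10 of 11 measured, with a median of −0.41 and none higher. Eif3m had levels of 12.998, 13.27 and 13.29 in young and 13.14, 13.17 and 13.24 in aged pachytene spermatocytes, and 12.17, 12.34 and 12.43 and 12.35, 12.40 and 12.44 in round spermatids. The cell types did not overlap, and the difference was −0.84 ± 0.03 (adjusted p = 2.01e-17). Eif3d, which can itself bind a cap, differed by −0.73 ± 0.04 (adjusted p = 3.12e-14) and Eif3i by −0.65 ± 0.05 (adjusted p = 1.01e-11). Eif3b, a core scaffold subunit, was at −0.02 ± 0.04 and was not called (adjusted p = 0.589). The probe sets of Eif3a, Eif3h, Eif3j and Eif3k conflicted, so the direction of these 4 rests on the probe set used.

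Among the 4 factors of start codon selection and subunit joining, 1 was higher and 2 were lower. Eif5b, the GTPase that joins the large subunit, had 10.34, 10.92 and 12.01 in young and 10.07, 10.21 and 10.53 in aged pachytene spermatocytes, against 12.23, 12.32 and 12.50 and 12.20, 12.30 and 12.41 in round spermatids. Its arrays did not overlap between the cell types. The difference was 1.66 ± 0.14, or 3.15-fold (adjusted p = 2.32e-10). Eif6, which keeps the large subunit apart until it is released, moved the other way, from 10.62, 11.03 and 11.18 in young and 11.16, 11.26 and 11.34 in aged pachytene spermatocytes to 9.34, 9.53 and 9.81 and 9.51, 9.61 and 9.72. Again no array overlapped, and the difference was −1.53 ± 0.06, or 2.90-fold lower (adjusted p = 4.35e-17). Eif1b, a relative of the start codon factor eIF1, was lower at −0.73 ± 0.07 (adjusted p = 2.43e-09), and the X-linked Eif1ax at 0.12 was not called.

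Of the 7 elongation factors, 3 were higher, 2 lower and 2 not called. Eef1b2, a subunit of the complex that recharges eEF1A, had 13.43, 14.02 and 14.14 in young and 14.12, 14.14 and 14.16 in aged pachytene spermatocytes, and 11.88, 12.09 and 12.28 in young and 12.37, 12.46 and 12.62 in aged round spermatids. The cell types were well apart. It was lower by a difference of −1.75 ± 0.07, or 3.36-fold (adjusted p = 3.47e-17). Eef1d, a further subunit of the same complex, went the other way. Its medians were 13.07 (range 12.78 to 13.80) in young and 12.73 (12.60 to 12.92) in aged pachytene spermatocytes, and it spanned 13.71 to 14.08 over all round spermatid arrays. The highest young pachytene array lay inside that span, and the difference was 0.94 ± 0.09 (adjusted p = 1.14e-09). Eef1g, the third of these subunits, was higher by 0.28 ± 0.03 (adjusted p = 1.99e-08). Eef1a1, which delivers aminoacyl-tRNA, was lower at −0.47 ± 0.02 (adjusted p = 9.77e-16). Eef2, the translocase, differed by only 0.05 ± 0.02 (adjusted p = 0.0154). Its inhibitory kinase Eef2k was higher by 0.93 ± 0.05 (adjusted p = 5.32e-14) with the probe set used, and its probe sets conflicted.

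Both eIF5A genes were lower: Eif5a, which eases ribosomes through stall-prone stretches, at −0.41 ± 0.03 (adjusted p = 3.18e-12) and its paralog Eif5a2 at −0.95 ± 0.06 (adjusted p = 1.94e-12). Eif5a2 stood at 10.66, 11.32 and 11.52 in young and 11.38, 11.48 and 11.50 in aged pachytene spermatocytes, and at 10.36, 10.39 and 10.52 and 10.31, 10.37 and 10.44 in round spermatids, with no overlap between cell types. The lysine methyltransferase Eef1akmt2, which modifies eEF1A, stood at 8.58, 8.70 and 8.78 in young and 8.67, 8.80 and 8.87 in aged pachytene spermatocytes, and at 7.50, 7.80 and 8.03 and 7.71, 7.79 and 7.96 in round spermatids. Its arrays were apart as well, and it was lower at −0.96 ± 0.05 (adjusted p = 1.29e-14). Eef1akmt1 was called higher at 0.15, but was at −0.30 to −0.38 under the other scalings. Of the poly(A)-binding proteins, cytoplasmic Pabpc4 stood at 10.09, 10.31 and 11.39 in young and 9.09, 9.43 and 9.50 in aged pachytene spermatocytes, and at 8.96, 9.26 and 9.76 and 8.65, 8.73 and 8.90 in round spermatids. Aged pachytene and young round spermatid arrays overlapped. Between the cell types it was lower at −0.92 ± 0.12 (adjusted p = 1.63e-07). Nuclear Pabpn1 was called higher at 0.35 ± 0.05 (adjusted p = 1.79e-06), with conflicting probe sets.

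A pyrimidine run was present at the start of 16 of the 57 members with a RefSeq promoter, or 28.1%, against 19.0% of all 27457 genes with one. Of these 16 members, 4 were higher in round spermatids, 10 were lower and 2 were not called, with a median difference of −0.39. Of the 41 without a run, 15 were higher, 21 lower and 5 not called, with a median of −0.12. Both directions occurred among members with a run, as Eef1b2 at −1.75 and Eif4g1 at 1.74 show. Of 9 measured members of a list of textbook TOP mRNAs, 4 were higher and 5 lower, with a median of −0.30. The search found a run in Eef1a1, Eef1b2 and Eif3f of that list, but none in Eef1g, Eef2 and Eif3a. Members with and without a run are therefore not the same as TOP and other mRNAs. A run is a description of these letters and not of how a transcript is translated.

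Other genes of translation, taken from a list by symbol, were lower in round spermatids for 19 of 29 and higher for 8, with a median of −0.31. These were 65.5% and 27.6%, against 39.1% and 49.2% of all genes with 1 probe set each. Paip1, a partner of poly(A)-binding protein, was lower at −2.52, and the release factor Gspt1 at −1.28, while its paralog Gspt2 was higher at 1.80. Larp1, which binds TOP mRNAs, was lower at −1.28, and Dph5, an enzyme of the eEF2 diphthamide pathway, at −1.03. Of 8 mitochondrial translation factors 6 were lower and 1 was higher, with a median of −0.69.

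The second comparison asks what changed with age in pachytene spermatocytes. Pabpc4, Eif4g1, Eif5b, Eif1ax and both eIF2 gamma genes were lower in aged rats, and 3 eIF2B subunits and Eif4ebp3 were higher. Calls were made for 12 members higher and 14 lower, against 22.1% and 15.4% of all probe sets, and 37.5% in either direction. With 1 probe set per gene, 25.6% of genes were called higher and 19.1% lower. In either direction it was 44.6% of genes and 41.9% of members. The median change was 0.06 over members and 0.05 over all probe sets. Lower by at least 2-fold were 3 members and higher by 2-fold none, against 2.75% of probe sets. Arrays of the ages did not overlap for 6 higher and 6 lower members, against 12.9% and 8.10%. The balance depended on scaling: it was 37 higher and 9 lower with median centring, 2 and 23 on the deposited scale and 8 and 15 with arrays centred on hybridization controls. Those scalings moved the median of all probe sets to 0.13, −0.24 and −0.12.

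Without young rats 1, 10 and 11, 5 members were higher and 7 lower, and 12 of the 26 calls were kept. The calls for Eif1ax, Eif2b2, Eif2b5, Eif2s3, Eif2s3y, Eif3a, Eif4g1 and Pabpc4 held under every setting run other than a block over shared rat numbers. Rats 1, 10 and 11 lay above the other 3 young rats in 11 of the 14 members called lower with age, and below them in 9 of the 12 called higher. Levels of late spermatid, round spermatid, Sertoli cell and spermatogonia markers moved with age in the same fraction. Of 11 measured late spermatid markers 10 were lower in aged rats, with summed log2 levels of 17.26 to 18.09 in young and 16.91 to 17.35 in aged arrays. Of 12 Sertoli markers 10 were lower, with sums of 15.47 to 16.24 and 14.41 to 14.87. Of 9 round spermatid markers 4 were lower, each by at least 2-fold, and 1 was higher. Their sums were 15.70 to 16.29 in young and 15.68 to 15.74 in aged arrays, which overlap. Of 8 spermatogonia markers 3 were lower and none higher, with sums of 10.72 to 11.54 in young and 10.36 to 10.58 in aged arrays. Of 9 Leydig cell markers 3 were lower and none higher. Eif4g1, Eif5b, Eif2s3y and Eef1d, lower with age here, were higher in round spermatids than in pachytene spermatocytes, whereas Pabpc4 and Eif3a were lower. Eif2b2 and Eif2b5, higher with age here, were lower in round spermatids, whereas Eif4ebp3 was higher. The part of these markers in the age changes of this fraction was not tested.

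Pabpc4, a poly(A)-binding protein of the cytoplasm, had levels of 10.26, 10.47 and 11.46 in young and 9.19, 9.58 and 9.65 in aged pachytene spermatocytes. All young arrays lay above all aged arrays. The change was −1.20 ± 0.18 (SE, n = 6 per age), or 2.29-fold lower (adjusted p = 8.10e-04), and −0.92 (adjusted p = 4.00e-04) without rats 1, 10 and 11. Pabpn1 was also called lower, at −0.29 ± 0.08 (adjusted p = 0.0156), with 0.04 under median centring and −0.13 (adjusted p = 0.104) without those rats.

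Eif4g1 went from 10.24, 10.89 and 12.12 in young to 9.75, 9.96 and 10.34 in aged pachytene spermatocytes. Young rats 1, 10 and 11 gave 12.12, 11.31 and 11.46, and the other young rats 10.24 to 10.47, which overlaps the aged range. The change was −1.01 ± 0.28, or 2.01-fold lower (adjusted p = 0.0136), and −0.39 (adjusted p = 0.0209) without those rats. Eif4a1 was lower at −0.46 ± 0.09 (adjusted p = 0.00225), with 11.47, 11.66 and 12.04 in young and 11.15, 11.24 and 11.30 in aged rats. Its groups did not overlap, and the change was −0.29 (adjusted p = 0.00185) without young rats 1, 10 and 11. The other 9 eIF4 factors were not called in this comparison.

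**Figure D4:**
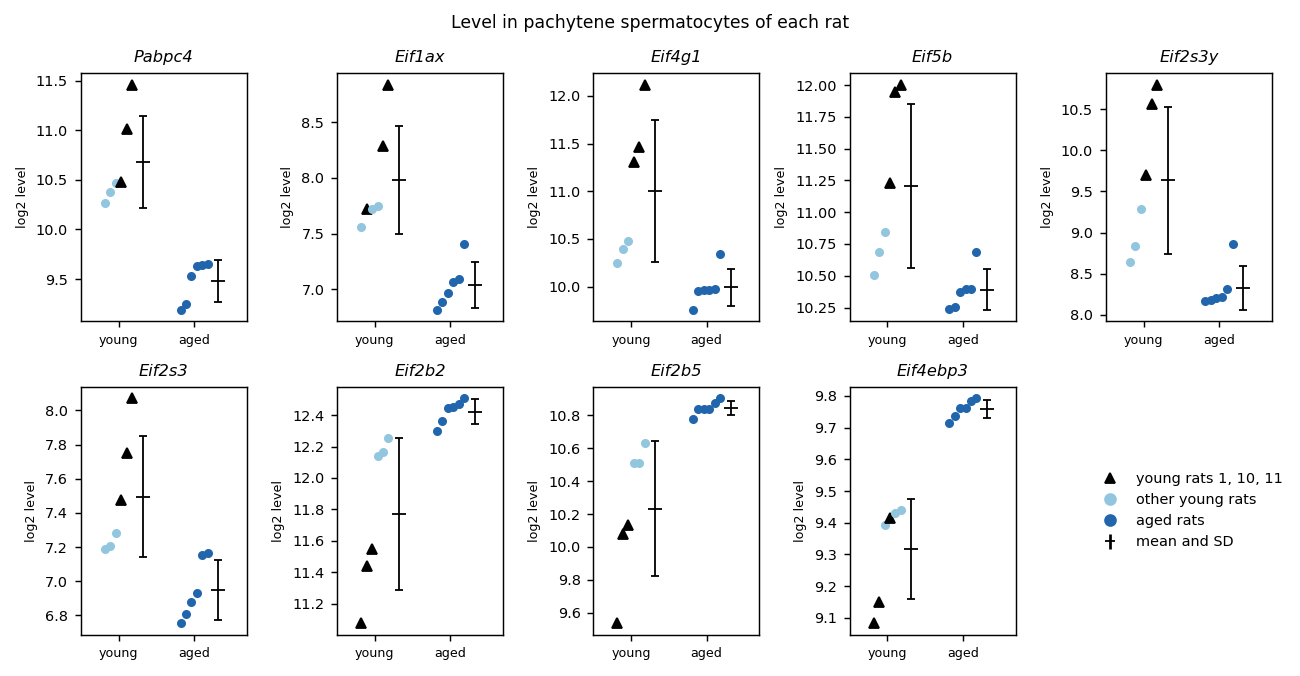
Log2 level of 9 members on each of the 12 pachytene spermatocyte arrays by age, with young rats 1, 10 and 11 as triangles. The triangles lie highest among young rats for Pabpc4, Eif4g1, Eif5b, Eif2s3y and Eif2s3, lowest for Eif2b2 and Eif2b5, and mixed with the other young rats for Eif1ax and Eif4ebp3.

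The 3 sex-linked members all had lower levels in aged pachytene spermatocytes. Eif2s3y went from 8.64, 9.49 and 10.80 in young to 8.17, 8.21 and 8.86 in aged rats, a change of −1.31 ± 0.33, or 2.48-fold lower (adjusted p = 0.00954). One aged rat reached the young range, and without young rats 1, 10 and 11 the change was −0.61 (adjusted p = 0.0213). Eif1ax, the X-linked gene of the scanning factor eIF1A, went from 7.56, 7.74 and 8.84 to 6.81, 7.02 and 7.404, which do not overlap, and changed by −0.94 ± 0.19 (adjusted p = 0.00328), or −0.63 (adjusted p = 0.00189) without those rats. Eif2s3 went from 7.19, 7.38 and 8.07 to 6.75, 6.91 and 7.17, again without overlap, at −0.55 ± 0.14 (adjusted p = 0.0116), or −0.27 (adjusted p = 0.0496) without them. Of 444 genes that RefSeq places on the X chromosome, 53.4% were called lower and 3.15% higher in this comparison, with a median of −0.38, against 17.9% and 26.3% of 13713 autosomal genes and a median of 0.06. Both X-linked members thus moved in the direction of most called genes of that chromosome. The chromosome shares include young rats 1, 10 and 11.

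Eif5b went from 10.51, 11.04 and 12.004 to 10.24, 10.38 and 10.68. The ages overlapped, and the change was −0.81 ± 0.24 (adjusted p = 0.0185). Without young rats 1, 10 and 11 it was −0.30, with an adjusted p of 0.0515. Eif3a, the largest eIF3 subunit, went from 9.88, 10.14 and 10.51 to 9.54, 9.55 and 9.80 without overlap, at −0.52 ± 0.10 (adjusted p = 0.0025), or −0.34 (adjusted p = 0.00576) without those rats. Its other probe set gave −0.24 and was not called (adjusted p = 0.0929). Eif3d and Eif3k were called higher at 0.19 and 0.18, and stood at 0.09 (adjusted p = 0.18) and 0.17 (adjusted p = 0.0359) without the 3 rats. The kinases Eif2ak2, Eif2ak3 and Eif2ak4, all dim in this fraction, were called lower, at −0.40, −0.22 and −0.35. None of these 3 calls was kept without young rats 1, 10 and 11, where the kinases stood at −0.18, −0.14 and −0.22 (adjusted p = 0.225, 0.106 and 0.0503).

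The eIF2B subunits were called higher for 3 of 5, with a median of 0.42 and none lower. Eif2b2 went from 11.07, 11.84 and 12.25 in young to 12.30, 12.45 and 12.51 in aged rats, and Eif2b5 from 9.54, 10.32 and 10.63 to 10.78, 10.84 and 10.91. In both genes every aged array lay above every young array. The changes were 0.65 ± 0.18 (adjusted p = 0.0133) and 0.61 ± 0.15 (adjusted p = 0.00815), and 0.24 and 0.30 without young rats 1, 10 and 11 (adjusted p = 0.0108 and 0.00163). Eif4ebp3, which holds eIF4E, went from 9.08, 9.40 and 9.44 to 9.72, 9.76 and 9.79, without overlap, at 0.44 ± 0.07 (adjusted p = 7.88e-04), or 0.35 (adjusted p = 4.07e-04) without those rats. The eEF1A methyltransferase Eef1akmt1 went from 7.95, 8.32 and 8.46 to 8.57, 8.64 and 8.75, without overlap. It was called higher at 0.40 ± 0.08 (adjusted p = 0.0038), but was at −0.03 on the deposited scale, and at 0.26 (adjusted p = 0.00533) without the 3 rats. Eef1akmt4, from 8.17, 8.67 and 8.90 to 8.81, 8.90 and 8.97, and Eif1ad, a name that matched the pattern but was given no role, from 10.18, 10.52 and 10.69 to 10.64, 10.77 and 10.79, overlapped between the ages. Both were called higher, at 0.27 ± 0.10 (adjusted p = 0.0468) and 0.26 ± 0.08 (adjusted p = 0.0227), and without the 3 rats neither call was kept, at 0.10 and 0.11 (adjusted p = 0.227 and 0.146). The call for Eef1akmt4 was lost under 15 of the 21 settings run, 9 of which each left out 1 rat, and its sign turned to −0.13 on the deposited scale.

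Of the 29 other translation genes, 8 were higher and 7 lower with age in this fraction. These were 27.6% and 24.1%, near the 25.6% and 19.1% of all genes with 1 probe set each. The X-linked genes Fmr1, whose product binds mRNA on ribosomes, and Ddx3x, an RNA helicase of initiation, were lower at −1.15 and −1.17. Mknk1, a kinase that phosphorylates eIF4E, was higher at 0.43. Of 8 mitochondrial factors 3 were higher and none lower, among them Gfm2 at 0.32.

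The third comparison asks the same of round spermatids. Changes were smaller, with 16 members higher and 12 lower in aged rats, against 8.60% and 8.54% of probe sets, and 17.1% in either direction. With 1 probe set per gene, 12.4% of genes were called higher and 12.5% lower. In either direction it was 24.9% of genes and 45.2% of members. No member changed by 2-fold, against 0.0515% of probe sets. The arrays of the ages did not overlap for 10 higher and 4 lower members, against 4.30% and 3.63%. The median was −0.03 over members and 0.00 over all probe sets. The split was 6 higher and 15 lower with median centring, 26 and 5 on the deposited scale and 28 and 2 with hybridization controls, where the median of all probe sets was at 0.01, 0.14 and 0.18. Without young rats 1, 10 and 11, 8 were higher and 3 lower. The count of members called lower fell to 5 without aged rat 9 or aged rat 10, to 6 without young rat 11, and to 7 without young rat 13, aged rat 3 or aged rat 8. The calls for Eef1b2, Eif2b1, Eif2b2 and Eif2b5 held under every setting run other than the block over shared rat numbers. Sertoli markers were called lower for 7 of 12 here, with sums of 12.35 to 13.26 in young and 11.72 to 12.27 in aged rats. Spermatogonia markers were called lower for 3 of 8, with sums of 11.92 to 12.61 in young and 11.69 to 11.89 in aged rats. Of 12 pachytene markers 5 were called higher and none lower, with a median of 0.22 and sums of 15.50 to 15.79 in young and 15.85 to 15.99 in aged rats, which do not overlap. Eif2b1, Eif2b2, Eif2b5 and Eef1b2, all higher with age here, were also higher in pachytene spermatocytes than in round spermatids. The part of these markers in the age changes was not tested.

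The eIF2B subunits were again higher with age. Eif2b2 went from 10.25, 10.35 and 10.75 in young to 10.84, 11.04 and 11.27 in aged round spermatids, at 0.62 ± 0.09 (adjusted p = 0.0018). Eif2b1 went from 8.09, 8.27 and 8.43 to 8.60, 8.64 and 8.79, at 0.40 ± 0.06 (adjusted p = 0.00177). Eif2b5 went from 8.89, 9.29 and 9.49 to 9.51, 9.61 and 9.79, at 0.38 ± 0.08 (adjusted p = 0.00918). In all 3 genes the lowest aged array lay above the highest young one. Without young rats 1, 10 and 11 the changes of Eif2b2, Eif2b1 and Eif2b5 were 0.52, 0.32 and 0.25 (adjusted p = 0.019, 0.0152 and 0.0451). The other probe set of Eif2b5 gave −0.04 with age in round spermatids and was not called (adjusted p = 0.392). Eif2b3 (−0.19) and Eif2b4 (−0.00) were not called.

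Eef1b2 was higher in aged round spermatids, from 11.84, 12.07 and 12.29 to 12.39, 12.49 and 12.67, without overlap, at 0.45 ± 0.07 (adjusted p = 0.00231). Of the 11 eIF3 subunits 5 were higher and none lower, led by Eif3l, which went from 13.44, 13.67 and 13.94 to 13.94, 14.08 and 14.16 (0.39 ± 0.07, adjusted p = 0.00324). The highest young and the lowest aged array of Eif3l were both at 13.94, and the other arrays of the ages were apart. Eif4e, from 10.92, 11.11 and 11.27 to 11.46, 11.51 and 11.65, was higher at 0.42 ± 0.06 (adjusted p = 0.00181) with the probe set used. Without young rats 1, 10 and 11, Eef1b2 was at 0.33 (adjusted p = 0.0196), Eif3l at 0.29 (adjusted p = 0.0287) and Eif4e at 0.29 (adjusted p = 0.0152). A second probe set of Eif4e gave −0.56 ± 0.12 (adjusted p = 0.00699), and the mean over its probe sets was −0.05. Probe sets were called in both directions for Eif4e and Eif4h in this comparison, against 1.30% of genes with several probe sets. In pachytene spermatocytes this held for Eef2k, against 3.60% of such genes.

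Lower in aged round spermatids were Eif4g1, from 11.95, 12.35 and 12.74 to 11.58, 11.86 and 12.03, and Pabpc4, from 8.68, 8.96 and 9.47 to 8.41, 8.48 and 8.62. The ages overlapped slightly for Eif4g1 and did not for Pabpc4. The changes were −0.53 ± 0.12 (adjusted p = 0.00812) and −0.49 ± 0.10 (adjusted p = 0.00675). The other probe set of Pabpc4 gave −0.08 and was not called (adjusted p = 0.132). Without young rats 1, 10 and 11, Eif4g1 was at −0.35 (adjusted p = 0.0736) and Pabpc4 at −0.34 (adjusted p = 0.0237). Eif4e3, a cap-binding relative, went from 8.59, 8.79 and 9.28 to 8.29, 8.40 and 8.50 without overlap, at −0.44 ± 0.09 (adjusted p = 0.00655), or −0.30 (adjusted p = 0.0173) without those rats. Eif1b went from 11.89, 12.30 and 12.93 to 11.73, 11.81 and 12.03, at −0.47 ± 0.14 (adjusted p = 0.0304). For this gene, as for Eif4h and Eif4a2 (−0.46 and −0.43), the ages overlapped, and the calls for Eif4a2, Eif4h and Eif1b were lost under 12, 10 and 7 of the 21 settings run. Without the 3 rats they stood at −0.32, −0.31 and −0.26 (adjusted p = 0.186, 0.183 and 0.155). Of the 29 other translation genes, 5 were higher and 4 lower, or 17.2% and 13.8%, against 12.4% and 12.5% of all genes with 1 probe set each. Hbs1l, a ribosome rescue factor, was higher at 0.36 and Pdcd4, an inhibitor of eIF4A, at 0.26, with young rats 1, 10 and 11 included.

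**Figure D5:**
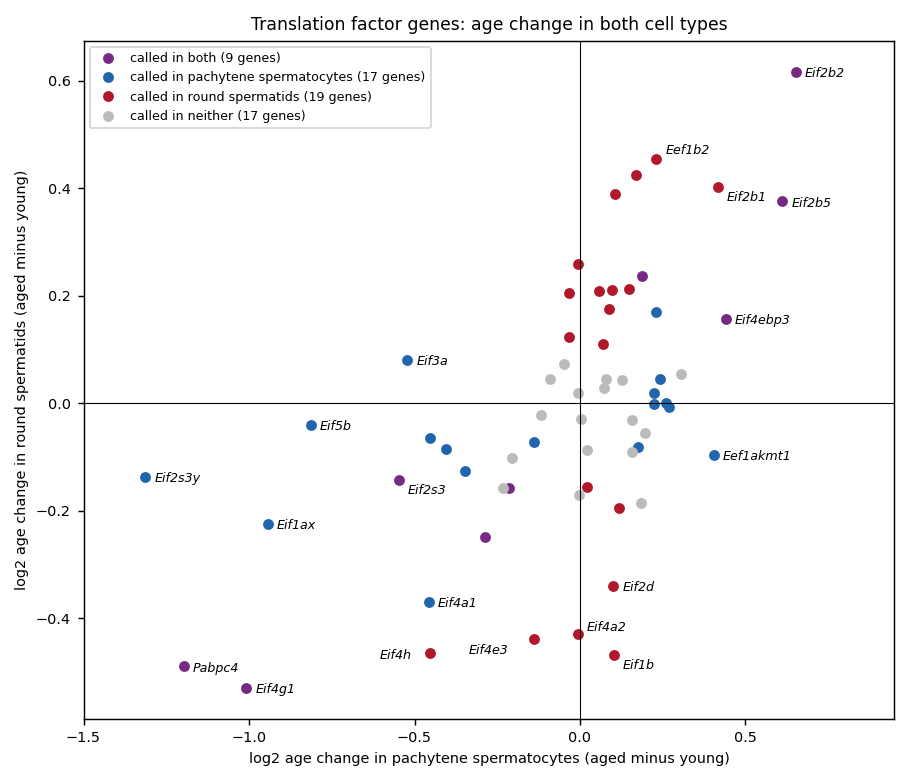
Age change (log2, aged minus young) of the 62 members in pachytene spermatocytes (horizontal axis) and round spermatids (vertical axis), coloured by the fraction in which each was called. Eif2b2, Eif2b5 and Eif2b1 lie at the upper right, Pabpc4 and Eif4g1 at the lower left, Eif2s3y and Eif5b far left and near 0 on the vertical axis (−0.14 and −0.04), and Eif1ax at −0.94 across and −0.22 up.

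The same 12 rats gave both fractions, so the age changes of the fractions are not independent. Of the members, 9 were called in both fractions, each in the same direction: Eif2b2, Eif2b5, Eif3d and Eif4ebp3 higher, and Eif2ak3, Eif2s3, Eif4g1, Pabpc4 and Pabpn1 lower. A further 17 were called in pachytene spermatocytes alone, 19 in round spermatids alone and 17 in neither. The share of all genes called in both fractions was not counted, so the 9 are not read as an excess of shared changes.

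Whether the age change itself differed between the fractions was tested as an interaction. It was called higher in round spermatids for 5 members and lower for 9, against 5.97% and 7.07% of probe sets. With 1 probe set per gene, 7.34% of genes were called higher and 8.87% lower. The median difference was −0.00 over members and −0.02 over all probe sets. The split was 5 and 14 with median centring, 35 and 1 on the deposited scale, and 14 and 1 with hybridization controls, where the median of all probe sets was at −0.09, 0.27 and 0.19. None of the 14 calls held under every setting run, and 7 were kept without young rats 1, 10 and 11. No member with several probe sets was called in both directions here, against 0.751% of such genes. Eif3a, which was lower with age in pachytene spermatocytes and at 0.08 in round spermatids, gave 0.58 ± 0.12 (adjusted p = 0.00327), or 0.38 (adjusted p = 0.0141) without those rats. This rests on the probe set used: the other one gave −0.24 (adjusted p = 0.0929) with age in pachytene spermatocytes and −0.26 (adjusted p = 0.0384) in round spermatids. In round spermatids its levels were 8.87, 9.08 and 9.26 in young and 9.05, 9.16 and 9.22 in aged rats, which overlap. Eif2d was at 0.10 in pachytene spermatocytes, where it went from 8.43, 8.52 and 8.59 to 8.54, 8.64 and 8.68. In round spermatids it went from 8.82, 8.95 and 9.40 to 8.57, 8.64 and 8.74 without overlap, a change of −0.34 ± 0.08 (adjusted p = 0.0116), and the difference was −0.43 ± 0.09 (adjusted p = 0.00418), but was 0.12 on the deposited scale. Without the 3 rats its interaction was −0.34 (adjusted p = 0.00216). Eif4g2 and Eif4a3 were at −0.03 and −0.01 in pachytene spermatocytes and were higher with age in round spermatids. There Eif4g2 went from 12.49, 12.70 and 12.74 to 12.79, 12.87 and 12.90, and Eif4a3 from 11.26, 11.54 and 11.60 to 11.62, 11.73 and 11.88. In both genes every aged array lay above every young one, and the interaction was 0.23 ± 0.05 (adjusted p = 0.00641) and 0.23 ± 0.07 (adjusted p = 0.033). Without the 3 rats it was 0.14 and 0.15 (adjusted p = 0.0368 and 0.208), and their changes in round spermatids, 0.13 and 0.17, were not called (adjusted p = 0.0627 and 0.111). Eif1b and Eif4e3 went the other way, at −0.52 ± 0.15 (adjusted p = 0.0213) and −0.42 ± 0.12 (adjusted p = 0.0259), the second with 0.13 on the deposited scale. Without the 3 rats these were −0.25 and −0.33 (adjusted p = 0.165 and 0.01). For Eef1akmt1, which was higher with age in pachytene spermatocytes and at −0.10 in round spermatids, it was −0.38 ± 0.07 (adjusted p = 0.00202), with 0.08 on the deposited scale and −0.22 (adjusted p = 0.0271) without the 3 rats.

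For other members with a large age change in pachytene spermatocytes, the interaction did not pass the threshold. It was 0.95 ± 0.33 for Eif2s3y (adjusted p = 0.0604), 0.85 ± 0.29 for Eif5b (adjusted p = 0.0534), 0.66 ± 0.24 for Pabpc4 (adjusted p = 0.0686) and 0.61 ± 0.34 for Eif4g1 (adjusted p = 0.258). For Eif2b2 it was −0.19 ± 0.23 (adjusted p = 0.642). For Eif1ax it was 0.22 ± 0.18 (adjusted p = 0.441), although the changes within the fractions were −0.94 in pachytene spermatocytes and −0.22 in round spermatids. The added constant bears on such low signals, so these results do not settle whether the changes differ. A p above the threshold does not show that the changes are alike in both fractions.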

How the data were processed

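The authors deposited log2 signals of 31099 probe sets on 24 arrays, and no source used here names the program that summarised the probes. Biotinylated cRNA was made from 3 ug total RNA taken with a Qiagen kit, per the labels' protocols. Members and gene lists were chosen with earlier results of these data known. Gene names came from GEO's platform annotation, checked against RefSeq GRCr8, where all 62 members were found; 57 had a promoter there. After leaving out 57 control probe sets, 31042 were tested with limma 3.58.1 in R 4.3.3 (lmFit, eBayes), with Benjamini-Hochberg adjustment over all of them. Age was tested within each cell type after quantile normalization. For cell type and the interaction, a constant of 84.5 was added to the linear pachytene values so that 45 control probe sets matched on average (difference 0.61 ± 0.77 before and 0.00 ± 0.17 after, SD), and all arrays were quantile normalized. With 6 rats per group, the number of rats limits the precision. The labels do not say that fractions or arrays were run in separate batches. Both fractions of a rat carry its number in their titles; with group means removed they correlated at −0.08 to 0.38, and the own fraction was the best match for 6 of 12 rats. Members given with all levels are the 6 largest called differences in each direction of a comparison (4 for the interaction). Others are Eif2s3y, the only listed germ-cell paralog measured, and the smallest p of each role. A member was dim where its mean lay under the 40th percentile. The script was tested on simulated data.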

Additional observations from a re-analysis of the deposited data

Results flagged for a closer look

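A sample stood far from the other 5 of its group in 10 of the groups examined, by the gap to the nearest array as a share of the group's range. Chance flags about 1 in 20 groups, and 132 groups were examined. In young pachytene spermatocytes these were Eif1a, lowest in rat 10 (0.745), and Eif3m, lowest in rat 1 (0.861). In aged pachytene spermatocytes all were in rat 2: Eif1ad was lowest there (0.790), and Eif2s3y (0.798), Eif4h (0.809) and Eif5b (0.648) were highest. In young round spermatids Eif2b2 was highest in rat 2 (0.652), and Eif2d (0.763) and Eif4e3 (0.659) in rat 10. In aged round spermatids Eif3a was lowest in rat 2 (0.657).

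By the interaction test of limma, the age change was called different between the fractions for 14 members. These were 5 higher and 9 lower in round spermatids, against 7.34% and 8.87% of all genes with 1 probe set each. None of the 14 calls held under every setting run, and the split was 35 and 1 on the deposited scale. Relative to pachytene spermatocytes, the change in round spermatids was more positive for Eif3a (0.582), Eif3l (0.280), Eif4a3 (0.232), Eif4g2 (0.226) and Eef1a1 (0.157). It was more negative for Eif1b (−0.522), Eif2d (−0.427), Eif4e3 (−0.419), Eef1akmt1 (−0.381), Eif2b3 (−0.356), Eif4ebp1 (−0.287), Eif1ad (−0.280), Eif3k (−0.263) and Eif4ebp3 (−0.244). Aged pachytene rat 2 supplied 4 of the 10 samples that stood apart.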

How the results depend on the processing

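Between cell types no alternative moved the member counts by over 1.5 times. Other results moved with scaling, and the cause was not tested. In pachytene spermatocytes the counts of 12 higher and 14 lower with age became 37 and 9 with median centring, 2 and 23 on the deposited scale, and 5 and 7 without young rats 1, 10 and 11. In round spermatids 16 and 12 became 6 higher with median centring, 26 and 5 on the deposited scale, 28 and 2 with arrays centred on hybridization controls, and 8 and 3 without those rats. For the interaction 5 and 9 became 14 lower with median centring, 35 and 1 with values as deposited, 14 and 1 with hybridization controls, 10 higher with array weights, and 5 lower without those rats. Leaving out each rat gave 8 to 14 higher and 10 to 15 lower in pachytene spermatocytes, 12 to 16 and 5 to 15 in round spermatids, and 3 to 7 and 4 to 11 for the interaction.

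A replicate block over the numbers that young and aged rats share (limma) left 0 calls higher and 0 lower in either fraction, with 3 higher and 5 lower in pachytene and 5 and 1 in round spermatids at an unadjusted p under 0.05; those numbers belong to different rats (correlations −0.74 to 0.08 and −0.26 to −0.02 over 3 numbers). The rat as a block, which pairs the fractions, gave 22 higher and 32 lower between cell types as a fixed term, 23 and 32 as a random term, and 7 and 9 for the interaction.

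With the mean over probe sets Eif1a turned to −1.21 and Eif4b to −0.065 between cell types, and Eif4e to −0.052 with age in round spermatids. With age in pachytene spermatocytes Eef1akmt1 turned to −0.026 and Eef1akmt4 to −0.13 with values as deposited, and Eef1akmt4 to −0.0089 with hybridization controls. For the interaction, Eef1akmt1 turned to 0.084, Eif2d to 0.12 and Eif4e3 to 0.13 with values as deposited, and to 0.013, 0.049 and 0.060 with hybridization controls, and Eif3l to −0.065 with median centring. Of 738 values of single genes under alternatives, 657 kept direction and side of the threshold, 68 fell below it and 13 changed sign. Signals near the background, as for the dim eIF2 kinases, limit the folds that can be seen.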
